A study of Mus musculus with 6 samples.

Results

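The cytosolic sulfotransferases were followed in the forebrain of Slc13a4+/- mice. The family was taken by gene symbol in the GENCODE M21 annotation of GRCm38, and its 9 members here are Sult1a1, Sult1b1, Sult1c1, Sult1c2, Sult1d1, Sult1e1, Sult2b1, Sult4a1 and Sult6b1, of 35523 genes in all. Bulk RNA-Seq was made from the whole forebrain of C57BL/6 mice at postnatal day 20, with 3 Slc13a4+/- mice (named Nas2Del_Het_1024, Nas2Del_Het_1025 and Nas2Del_Het_1027) and 3 wild-type mice (named Nas2Del_WT_1016, Nas2Del_WT_1018 and Nas2Del_WT_1026). Where the value of each mouse is given, the mice come in this order within their genotype. The Slc13a4+/- mice carry 1 allele labelled Nas2Del, and the methods do not state the region of the gene that this allele lacks. No treatment is named for either group, and wild-type littermates served as controls. Counts assigned to genes summed to between 59951080 and 79905963 per mouse.

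Sulfotransferases of the cytosol move a sulfonate group from the donor PAPS (3′-phosphoadenosine 5′-phosphosulfate) onto hormones, neurotransmitters, steroids and foreign phenols, which usually makes them more soluble and less active. PAPS itself is made from ATP and sulfate, and SLC13A4 is a plasma membrane transporter that brings sulfate into cells. Family members differ in the compounds they accept. SULT1A1 takes simple phenols, SULT1E1 takes estrogens, SULT2B1 takes cholesterol, oxysterols and pregnenolone, and SULT4A1 is a conserved brain protein for which no firm substrate is known.

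The donor is held in part by a loop that grips its 5′ phosphosulfate group. The bases that encode this loop are shown for the 9 members. The loop was located in each by a fixed pattern of amino acids, and other shared stretches were not compared. Each run is 42 bases of the coding strand, 5′ to 3′, from the GENCODE M21 transcripts (GRCm38), with the 18 bases of the loop in capitals. In all 9 members the run crosses an exon junction. In Sult4a1 it lies within chr15:84092404-84105455, in Sult1a1 within chr7:126675337-126675468 and in Sult2b1 within chr7:45735327-45742078, each on the minus strand with an intron inside.
Sult4a1: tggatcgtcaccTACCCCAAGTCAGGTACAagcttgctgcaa
Sult1a1: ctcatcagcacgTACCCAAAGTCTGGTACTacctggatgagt
Sult2b1: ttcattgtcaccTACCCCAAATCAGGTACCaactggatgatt
Sult1b1: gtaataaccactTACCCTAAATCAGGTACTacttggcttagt
Sult1c1: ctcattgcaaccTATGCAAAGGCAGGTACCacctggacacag
Sult1c2: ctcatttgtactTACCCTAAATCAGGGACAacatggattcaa
Sult1d1: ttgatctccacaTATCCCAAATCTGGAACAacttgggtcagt
Sult1e1: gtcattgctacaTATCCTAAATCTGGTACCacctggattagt
Sult6b1: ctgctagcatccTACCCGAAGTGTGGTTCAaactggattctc
Within the 18 bases Sult2b1 differed from Sult4a1 at 2 positions, and Sult1a1, Sult1b1 and Sult1c2 differed at 3. Sult1d1 and Sult6b1 differed at 4, and Sult1c1 and Sult1e1 at 5.

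The tissue and the genotype were checked first. The 5 forebrain markers summed to between 277 and 323 CPM (counts scaled to a library of common size after TMM normalization) in the 6 mice, and all 5 hindbrain Hox genes had under 10 counts in every mouse. Slc13a4 was at 5.86 ± 0.618 CPM (SD, n = 3) in Slc13a4+/- mice and 9.34 ± 1.10 CPM (SD, n = 3) in wild-type mice, with no overlap. Its log2 fold change was -0.67 (SE 0.11, adjusted p = 0.50 in edgeR's quasi-likelihood test), and -0.63 (SE 0.13, adjusted p = 0.00240) in the DESeq2 Wald test. Some libraries stood apart from their group. Nas2Del_WT_1016 had 105 CPM of the Y-linked gene Ddx3y against at most 0.0331 CPM in any other mouse, and neither labels nor methods give the sex of the mice. By this gene Nas2Del_WT_1016 alone looked male, so sex was not balanced between the genotypes. Leaving out Nas2Del_WT_1026 raised the number of genes called at an adjusted p under 0.1 from 1 to 223 in edgeR and from 86 to 720 in DESeq2, so results are also given without these mice. The summed astrocyte, microglia and choroid plexus markers were lower in every Slc13a4+/- mouse than in any wild-type mouse, at 1201 to 1249 against 1279 to 1292 CPM, 327 to 339 against 350 to 355 CPM, and 384 to 447 against 464 to 471 CPM. Of single tested genes, 7.70% lay in this order. The oligodendrocyte sums overlapped, at 6597 to 7694 against 7478 to 8370 CPM. Of 5 markers each, 3 of oligodendrocytes, 2 of astrocytes and 2 of endothelium had an unadjusted p under 0.05 in edgeR. So had 1 of microglia, 1 of choroid plexus and 1 of meningeal fibroblasts, but no neuron marker. Of all tested genes, 9.15% had an unadjusted p under 0.05. None of these markers was called.

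Of the 9 sulfotransferases, 3 were detected in the P20 forebrain, with 10 or more estimated counts in at least 3 mice. These were Sult4a1, Sult1a1 and Sult2b1. None of the 3 was called between Slc13a4+/- and wild-type mice in edgeR or in DESeq2 at an adjusted p under 0.1, and none had an unadjusted p under 0.05 in edgeR. Over all tested genes edgeR called 1 of 17096, or 0.00585%, and 9.15% had an unadjusted p under 0.05. DESeq2 called 86 of 17659 genes, or 0.487%. Slc13a4 itself was called in DESeq2 but not in edgeR's quasi-likelihood test (adjusted p = 0.50). A gene left uncalled in edgeR may therefore still differ.

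**Figure D1:**
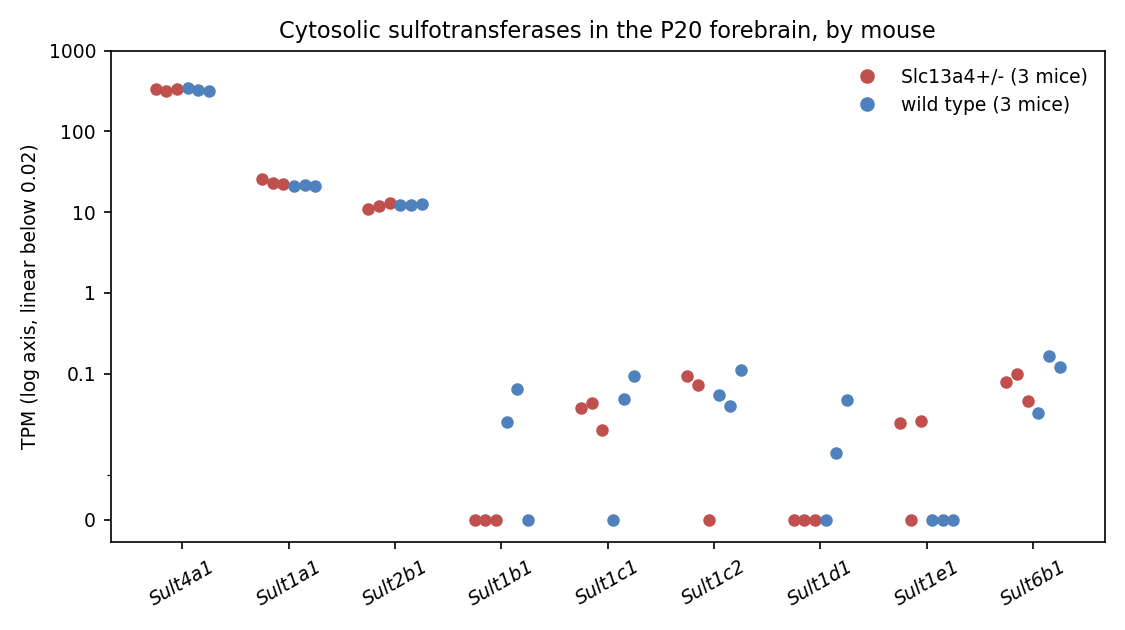
TPM (y axis, log scale that is linear below 0.02) of the 9 cytosolic sulfotransferases (x axis) in each Slc13a4+/- mouse (red) and each wild-type mouse (blue); each point is 1 mouse. Sult4a1 lies between 318 and 346 TPM, Sult1a1 between 20.9 and 26.0, Sult2b1 between 11.0 and 13.1, and each of the other 6 members near 0.

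Sult4a1 (ENSMUSG00000018865) was by far the most abundant member. It lies on the minus strand at chr15:84076097-84105754 of GRCm38 and overlaps no other annotated gene. Its level per length was 333, 318 and 336 TPM in the 3 Slc13a4+/- mice, and 346, 323 and 320 TPM in the 3 wild-type mice. The values of the genotypes interleaved, with the lowest in a Slc13a4+/- mouse and the highest in a wild-type mouse. By TPM the gene ranked between 438 and 465 among the 35523 genes of a mouse.

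These levels rest on 21196 to 27725 estimated counts per mouse. On the CPM scale Sult4a1 stood at 349 ± 10.6 (SD, n = 3) in Slc13a4+/- mice and 356 ± 16.6 (SD, n = 3) in wild-type mice. Sult4a1 had a log2 fold change of -0.03 (SE 0.05, adjusted p = 0.878 in edgeR's quasi-likelihood test), with a 95% interval from -0.13 to 0.08, that is from 0.913-fold to 1.05-fold. DESeq2 gave -0.03 (SE 0.05, adjusted p = 0.992). Without Nas2Del_WT_1016 the edgeR value was 0.02 (SE 0.04), and without Nas2Del_WT_1026 it was -0.05 (SE 0.04). Neuron markers, whose sum ranged from 5268 to 5411 CPM in Slc13a4+/- and from 5178 to 5489 CPM in wild-type mice, overlapped in the same way. In whole tissue, fewer cells of a type and less RNA per cell cannot be told apart.

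Taken per length, Sult4a1 made up about 9 parts in 10 of the RNA of the 9 members. This sum leaves out 12 further cytosolic sulfotransferase genes, of which Sult2a8 and Sult5a1 were detected. Sult2a8 had 4.84 to 10.7 TPM, a level that is uncertain as described below. The share of Sult4a1 in the summed TPM of the 9 members was 89.94%, 90.02% and 90.40% in the 3 Slc13a4+/- mice. In the 3 wild-type mice it was 91.11%, 90.38% and 90.45%. The groups overlapped only between Nas2Del_Het_1027 and Nas2Del_WT_1018. The means were 90.12% ± 0.25 and 90.65% ± 0.40 (SD, n = 3 each), a difference of -0.52 percentage points (two-sided exact permutation test, p = 0.20; with 3 mice a group p cannot go below 0.1). By estimated counts, which favour long transcripts, the shares were 95.04% ± 0.24 and 95.25% ± 0.26 (two-sided exact permutation test, p = 0.40).

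The distance from Sult4a1 to the next members was wide in every mouse. Its TPM was 12.8 to 16.2 times that of Sult1a1 and 25.4 to 30.2 times that of Sult2b1. Sult1a1 held 5.64% to 7.01% of the summed TPM and Sult2b1 held 2.98% to 3.56%. The order Sult4a1, Sult1a1, Sult2b1 was the same in all 6 mice, and none of these neighbours overlapped. The remaining 6 members together came to 0.0923 to 0.372 TPM, in a total of 353 to 380 TPM for the 9 members.

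The 2 annotated transcripts of Sult4a1 share 742 coding bases and part at the end of the coding sequence, so their ends are shown. Lower case marks the last 20 shared bases and capitals mark the coding bases that the other transcript does not translate, up to and with the stop codon. The own stretch of Sult4a1-201 (ENSMUST00000082365) lies at chr15:84077470-84077582 and that of Sult4a1-202 (ENSMUST00000229826), in an exon that Sult4a1-201 lacks, at chr15:84078797-84078897, both on the minus strand of GRCm38 (GENCODE M21).
Sult4a1-201: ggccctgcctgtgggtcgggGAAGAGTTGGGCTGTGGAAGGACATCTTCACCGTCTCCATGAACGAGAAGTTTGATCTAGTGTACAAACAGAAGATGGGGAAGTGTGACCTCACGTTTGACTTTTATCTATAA
Sult4a1-202: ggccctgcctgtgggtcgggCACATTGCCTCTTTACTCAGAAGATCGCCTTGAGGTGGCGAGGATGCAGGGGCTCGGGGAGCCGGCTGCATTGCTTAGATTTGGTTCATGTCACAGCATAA
The own coding end of Sult4a1-201 has 113 bases and that of Sult4a1-202 has 101. Sult4a1-202 also carries the stretch shown for Sult4a1-201, beyond its stop codon, and between its outer ends it differs from Sult4a1-201 by the extra exon. No window of 31 bases of either transcript occurs in a transcript of another gene, on either strand.

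Nearly all Sult4a1 counts were assigned to Sult4a1-201. Its level was 331, 316 and 333 TPM in the Slc13a4+/- mice and 343, 322 and 317 TPM in the wild-type mice. Sult4a1-202 had 1.95, 2.24 and 2.58 TPM in the Slc13a4+/- mice and 2.73, 1.11 and 3.19 TPM in the wild-type mice. Its lowest and its highest value were both in wild-type mice. It took 0.180% to 0.523% of the counts of the gene, on 38.2 to 140 estimated counts.

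The share of counts on Sult4a1-201 was 99.64% ± 0.049 in Slc13a4+/- and 99.63% ± 0.18 in wild-type mice (SD, n = 3 each), a difference of 0.013 percentage points (two-sided exact permutation test, p = 0.90). Neither transcript was called when all 54721 transcripts with enough counts were tested in edgeR, where 0 were called and 7.41% had an unadjusted p under 0.05. Sult4a1-201 had a log2 fold change of -0.06 (SE 0.05, adjusted p = 0.801). For Sult4a1-202 it was -0.11 (SE 0.40, adjusted p = 0.955), with a 95% interval from -1.08 to 0.86. Salmon divides reads that fit both transcripts by a model, so the split rests on the reads over the parts that differ.

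**Figure D2:**
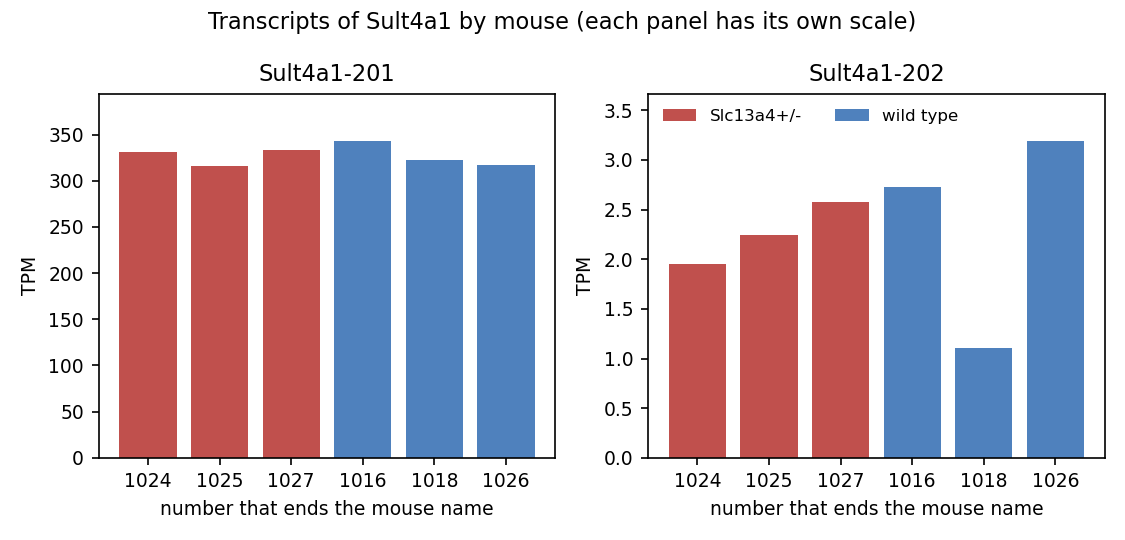
TPM (y axis, a separate scale from 0 in each panel) of Sult4a1-201 and Sult4a1-202 in each mouse (x axis, the number that ends its name), Slc13a4+/- in red and wild type in blue; each bar is 1 mouse. Sult4a1-201 stays between 316 and 343 TPM, whereas Sult4a1-202 runs from 1.11 to 3.19 TPM, with both extremes in wild-type mice.

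Sult1a1 (ENSMUSG00000030711, chr7:126672865-126676432, minus strand), the phenol sulfotransferase, was second. It stood at 26.0, 23.2 and 22.5 TPM in the 3 Slc13a4+/- mice and at 21.4, 21.9 and 20.9 TPM in the 3 wild-type mice. In TPM the lowest Slc13a4+/- value exceeded the highest wild-type value. How many genes had this order in TPM was not counted, and in CPM 7.25% of all tested genes had it. On the CPM scale the values were 14.1, 12.3 and 11.7 against 11.6, 12 and 11.2, and the groups overlapped.

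The mean level of Sult1a1 was 12.7 ± 1.24 CPM in Slc13a4+/- and 11.6 ± 0.414 CPM in wild-type mice (SD, n = 3 each). Its log2 fold change was 0.13 (SE 0.08, adjusted p = 0.631 in edgeR), with a 95% interval from -0.04 to 0.30, and DESeq2 gave 0.13 (SE 0.10, adjusted p = 0.929). The value rested most on Nas2Del_Het_1024, the highest of the 6, and without it the log2 fold change was 0.05. It was 0.13 without Nas2Del_WT_1016 and 0.11 without Nas2Del_WT_1026. The transcript Sult1a1-202 took 92.7% to 97.5% of the counts and was not called (log2 fold change 0.10, SE 0.09, adjusted p = 0.805 in edgeR). The gene overlaps Sgf29 on the other strand, and 13.6% of the 31-base windows of Sult1a1-202 also occur, on either strand, in transcripts of Sgf29 or Gm6939. The libraries were stranded, and how far these genes exchanged reads was not tested.

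Sult2b1 (ENSMUSG00000003271, chr7:45729983-45784669, minus strand), the sulfotransferase of cholesterol and other sterols, was the third. It stood at 5.30, 5.28 and 5.72 CPM in the 3 Slc13a4+/- mice and at 5.81, 6.04 and 6.01 CPM in the 3 wild-type mice. On this scale every Slc13a4+/- value lay below every wild-type value, which was so for 7.70% of all tested genes (15.0% did not overlap in either direction). In TPM the values were 11.0, 11.9 and 13.1 against 12.2, 12.2 and 12.6, and the groups overlapped, with the highest value in Nas2Del_Het_1027.

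The mean of Sult2b1 was 5.43 ± 0.249 CPM in Slc13a4+/- and 5.95 ± 0.124 CPM in wild-type mice (SD, n = 3 each), on 365 to 469 estimated counts per mouse. Its log2 fold change was -0.13 (SE 0.07, adjusted p = 0.605 in edgeR), with a 95% interval from -0.29 to 0.03. With the average transcript length as an offset it was -0.07 in edgeR and -0.07 (SE 0.12, adjusted p = 0.992) in DESeq2. Without Nas2Del_WT_1026 the edgeR value was -0.12, and without Nas2Del_WT_1016 it was -0.14. The gene overlaps Gm31597 and Lmtk3 on the other strand. The sums of astrocyte, microglia and choroid plexus markers had the same order of genotypes as the CPM of Sult2b1, and their part in it was not tested.

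Sult2b1 was the one detected member with a pair of strong transcripts. Sult2b1-207 (ENSMUST00000210754) and Sult2b1-201 (ENSMUST00000075571) begin at different first exons and then share 955 coding bases, so the starts of their coding sequences are shown. Capitals mark the coding bases that the other of the pair lacks, from the start codon on, and lower case the first 20 shared bases. The own stretches lie at chr7:45742197-45742360 for Sult2b1-207 and chr7:45759392-45759453 for Sult2b1-201, on the minus strand of GRCm38 (GENCODE M21).
Sult2b1-207: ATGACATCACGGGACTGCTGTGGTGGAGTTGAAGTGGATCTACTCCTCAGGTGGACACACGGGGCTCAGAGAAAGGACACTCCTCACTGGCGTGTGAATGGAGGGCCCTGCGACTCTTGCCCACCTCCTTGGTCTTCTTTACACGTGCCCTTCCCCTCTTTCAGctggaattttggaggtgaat
Sult2b1-201: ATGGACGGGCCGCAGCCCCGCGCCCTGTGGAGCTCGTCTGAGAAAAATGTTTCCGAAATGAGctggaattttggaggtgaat
The start of Sult2b1-207 has 164 bases of its own and that of Sult2b1-201 has 62. In each transcript 4.5% to 4.6% of the windows of 31 bases also occur in Gm31597.

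Sult2b1-207 was the higher of the pair in every mouse. It had 5.38, 4.52 and 6.17 TPM in Slc13a4+/- mice and 5.81, 6.62 and 5.75 TPM in wild-type mice. Sult2b1-201 had 3.45, 4.10 and 3.42 TPM in Slc13a4+/- mice and 3.68, 3.68 and 4.36 TPM in wild-type mice. The ratio of Sult2b1-207 to Sult2b1-201 was 1.56, 1.10 and 1.80 in Slc13a4+/- mice and 1.58, 1.80 and 1.32 in wild-type mice, so the genotypes overlapped. Together they held 72.5% to 84.6% of the TPM of the gene.

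None of the 5 transcripts of Sult2b1 that had enough counts was called. Sult2b1-207 had a log2 fold change of -0.23 (SE 0.17, adjusted p = 0.740 in edgeR) and Sult2b1-201 one of -0.15 (SE 0.16, adjusted p = 0.826 in edgeR). Among the tested transcripts the short Sult2b1-206 had the widest fold range, from 0.748 TPM in Nas2Del_WT_1018 to 2.70 TPM in Nas2Del_Het_1025, at a log2 fold change of 0.61 (SE 0.50, adjusted p = 0.774 in edgeR).

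**Figure D3:**
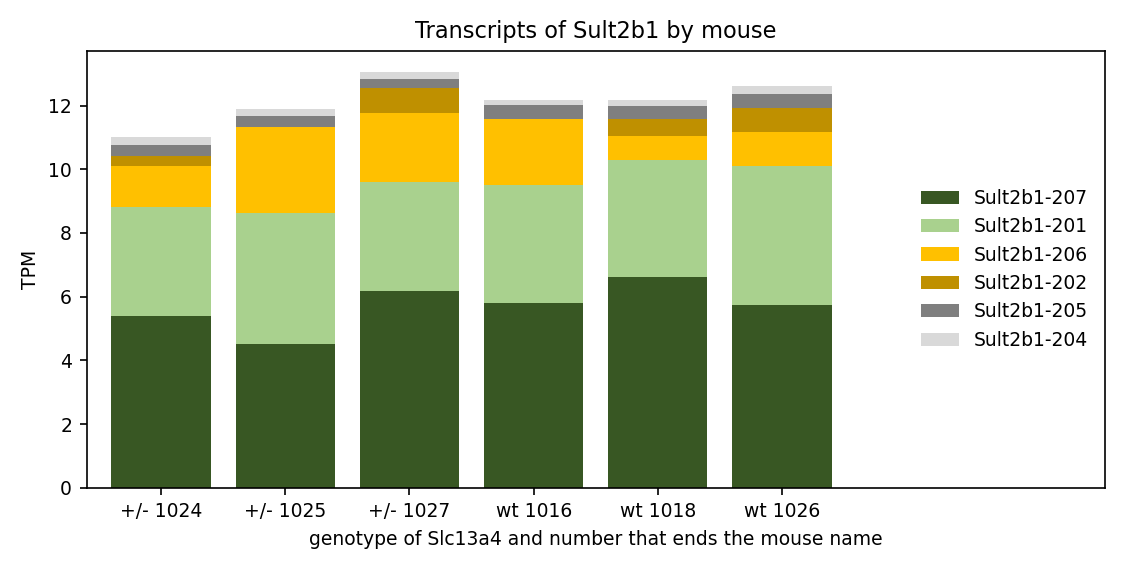
TPM (y axis) of the transcripts of Sult2b1, stacked, in each mouse (x axis, genotype of Slc13a4 and the number that ends its name); Sult2b1-203, at 0 in every mouse, and Sult2b1-208, at most 0.0472 TPM, are not drawn. Sult2b1-207 (dark green) exceeds Sult2b1-201 (light green) in all 6 mice, by 1.10 to 1.80 times.

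The other 6 members were near 0, and members next to each other in the order of their TPM overlapped. None had more than 7 estimated counts in any mouse, where 3 counts correspond to 0.0375 to 0.05 CPM. Sult1c2 had 6, 4 and 0 counts in the 3 Slc13a4+/- mice and 3, 2 and 7 in the 3 wild-type mice. Sult1c1, the other member of the 1C group, had 2, 2 and 1 counts against 0, 2 and 5. Sult6b1 had 2, 2 and 1 against 2, 3 and 4. These 3 genes had counts in 5 or 6 mice. The counts of each overlapped between the genotypes, as did the CPM of Sult1c1 and Sult1c2. The CPM of Sult6b1 was lower in every Slc13a4+/- mouse than in any wild-type mouse, on at most 4 counts. In CPM 7.70% of all tested genes had this order, and Sult6b1 had too few counts to be tested. In TPM Sult6b1 overlapped, with its lowest value, 0.0323, in Nas2Del_WT_1016.

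Sult1b1, which accepts phenols and thyroid hormones, had 2 counts in Nas2Del_WT_1016 and Nas2Del_WT_1018 each and 0 in the other 4 mice. Sult1d1, which in mice acts on catecholamines and related amines, had 1 count in Nas2Del_WT_1018, 4 in Nas2Del_WT_1026 and 0 elsewhere. Sult1e1, the estrogen sulfotransferase, had 1 count in Nas2Del_Het_1024 and Nas2Del_Het_1027 each and 0 elsewhere. A difference between genotypes was not detectable at this depth for any of the 6. Sult1b1, Sult1d1 and Sult1e1 lie together on chromosome 5, between 87513339 and 87591594, and Sult1c1 and Sult1c2 lie on chromosome 17 between 53829637 and 53990674 (GRCm38).

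**Figure D4:**
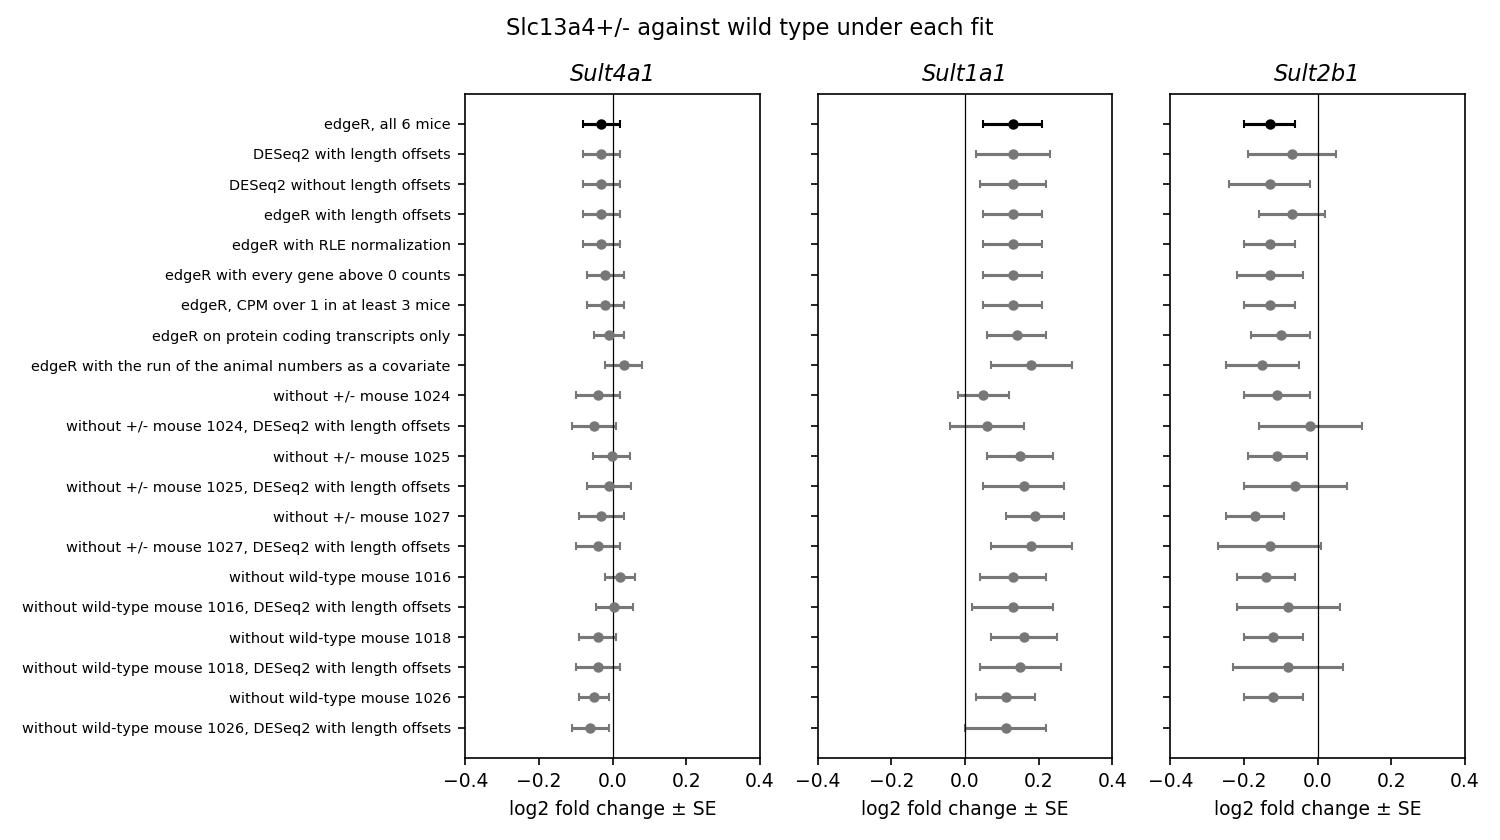
Log2 fold change of Sult4a1, Sult1a1 and Sult2b1 between Slc13a4+/- and wild-type mice (x axis, points, with bars of 1 SE) under each fit (y axis): edgeR with all 6 mice at the top in black, other fits and fits without 1 mouse in grey. Sult4a1 runs from -0.06 to 0.03 on both sides of 0, Sult1a1 from 0.05 to 0.19 and Sult2b1 from -0.17 to -0.02; DESeq2 gave Sult2b1 no adjusted p without Nas2Del_WT_1026, so no point is drawn there.

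Genes around sulfonation were read beside the family, as 7 lists with 54 genes, of which 53 had transcripts to analyse (Sts was not analysed here) and 39 had enough counts to be tested. edgeR and DESeq2 called 0 of the 39. At an unadjusted p under 0.05 in edgeR, 1 was higher and 5 were lower in Slc13a4+/- mice, against 4.98% and 4.17% of all tested genes. Of the 39, 13 had a log2 fold change above 0 and 26 below, with a median of -0.03, whereas over all tested genes 8172 lay above 0 and 8924 below.

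Papss1 and Papss2 encode the synthases that make PAPS. Papss1 was at 84.9 ± 2.16 TPM in Slc13a4+/- and 85.2 ± 3.17 TPM in wild-type mice (SD, n = 3 each), with a log2 fold change of -0.02 (SE 0.04, adjusted p = 0.863 in edgeR). Papss2 was far lower per length, at 6.55 ± 0.164 and 7.05 ± 0.280 TPM (log2 fold change -0.09, SE 0.06, adjusted p = 0.652 in edgeR). All 6 tested genes of PAPS synthesis, transport and breakdown had a log2 fold change below 0, with a median of -0.06, and 0 of them had an unadjusted p under 0.05. The smallest p were those of Bpnt1, which breaks down the spent donor (log2 fold change -0.09, adjusted p = 0.569 in edgeR), and Slc35b2, which carries PAPS into the Golgi (log2 fold change -0.15, adjusted p = 0.578 in edgeR). All 6 tested genes of catecholamine synthesis and breakdown lay below 0 too, with a median of -0.08. Of these, 1 had an unadjusted p under 0.05 in edgeR.

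Of 12 further cytosolic sulfotransferase genes, mostly of the Sult2a group that is best known from liver, 2 were tested and 10 were under the detection limit. Sult2a8 had 7.88, 10.7 and 8.23 TPM in Slc13a4+/- mice and 6.76, 6.72 and 4.84 TPM in wild-type mice. In TPM and in CPM all 3 Slc13a4+/- values exceeded the wild-type values, as in CPM for 7.25% of all tested genes. Its log2 fold change was 0.53 (SE 0.21, adjusted p = 0.528 in edgeR). At least 96.8% of its counts fell on Sult2a8-205, a transcript of 358 bases in 2 exons, and 32.3% of the 31-base windows of that transcript also occur in transcripts of 166 other genes, so its level is uncertain. Of 3 liver markers, Alb and Serpina1a had under 10 counts in every mouse, and Apoa2 had enough counts to be tested and was not called. The 3 summed to 0.441 to 0.772 CPM in Slc13a4+/- and 0.513 to 0.661 CPM in wild-type mice. Sult5a1 was at 1.13 ± 0.257 and 0.999 ± 0.296 TPM (log2 fold change 0.22, SE 0.25, adjusted p = 0.808 in edgeR).

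Among genes that handle the same kinds of compounds, Maob, which degrades amines, had 19.2 ± 0.927 CPM in Slc13a4+/- and 21.5 ± 0.436 CPM in wild-type mice (SD, n = 3 each; log2 fold change -0.16, SE 0.05, adjusted p = 0.50 in edgeR). Srd5a1, a steroid reductase, had a log2 fold change of -0.17 (SE 0.05, adjusted p = 0.50 in edgeR), and Cyp11a1, which makes pregnenolone, had -0.21 (SE 0.09, adjusted p = 0.537 in edgeR). In DESeq2 with transcript length offsets the values were -0.10 (SE 0.09) for Srd5a1 and -0.12 (SE 0.14) for Cyp11a1. Slco1c1, a carrier of thyroxine at the blood-brain barrier, had -0.10 (SE 0.04, adjusted p = 0.527 in edgeR), and Ugt8a, which makes the galactolipid of myelin, had -0.14 (SE 0.06, adjusted p = 0.539 in edgeR). These 5 are the ones with an unadjusted p under 0.05 and a lower level in Slc13a4+/- mice, and none was called. Maoa and Dio2, next in their lists, had -0.08 (SE 0.06) and -0.11 (SE 0.06), and Ugt1a6a had -0.04 (SE 0.20).

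Of 6 tested genes described as partners or regulators of SULT4A1, 4 had a log2 fold change above 0 and 2 below, with a median of 0.01 and 0 at an unadjusted p under 0.05. Atf2, a transcription factor, had 0.04 (SE 0.04, adjusted p = 0.806 in edgeR), and Dlg4, which encodes a scaffold protein of excitatory synapses, had -0.04 (SE 0.05, adjusted p = 0.826 in edgeR). Without Nas2Del_WT_1026, 2 of the 6, the glutamate receptor genes Grin2a and Grin2b, were called in edgeR and in DESeq2. In these fits edgeR called 223 of 17337 genes (1.29%) and DESeq2 called 720 of 11013 (6.54%). With the run of the mouse numbers as a covariate, edgeR called Grin2b in a fit that called 143 genes (0.836%). That covariate leaves Nas2Del_WT_1026 as the lone wild-type mouse in its run, so the call need not have the direction of those made without this mouse. The directions were not compared. In the main edgeR fit Grin2b was at 912 ± 36.2 CPM in Slc13a4+/- and 916 ± 200 CPM in wild-type mice (SD). Its log2 fold change there was -0.01 (SE 0.13).

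**Figure D5:**
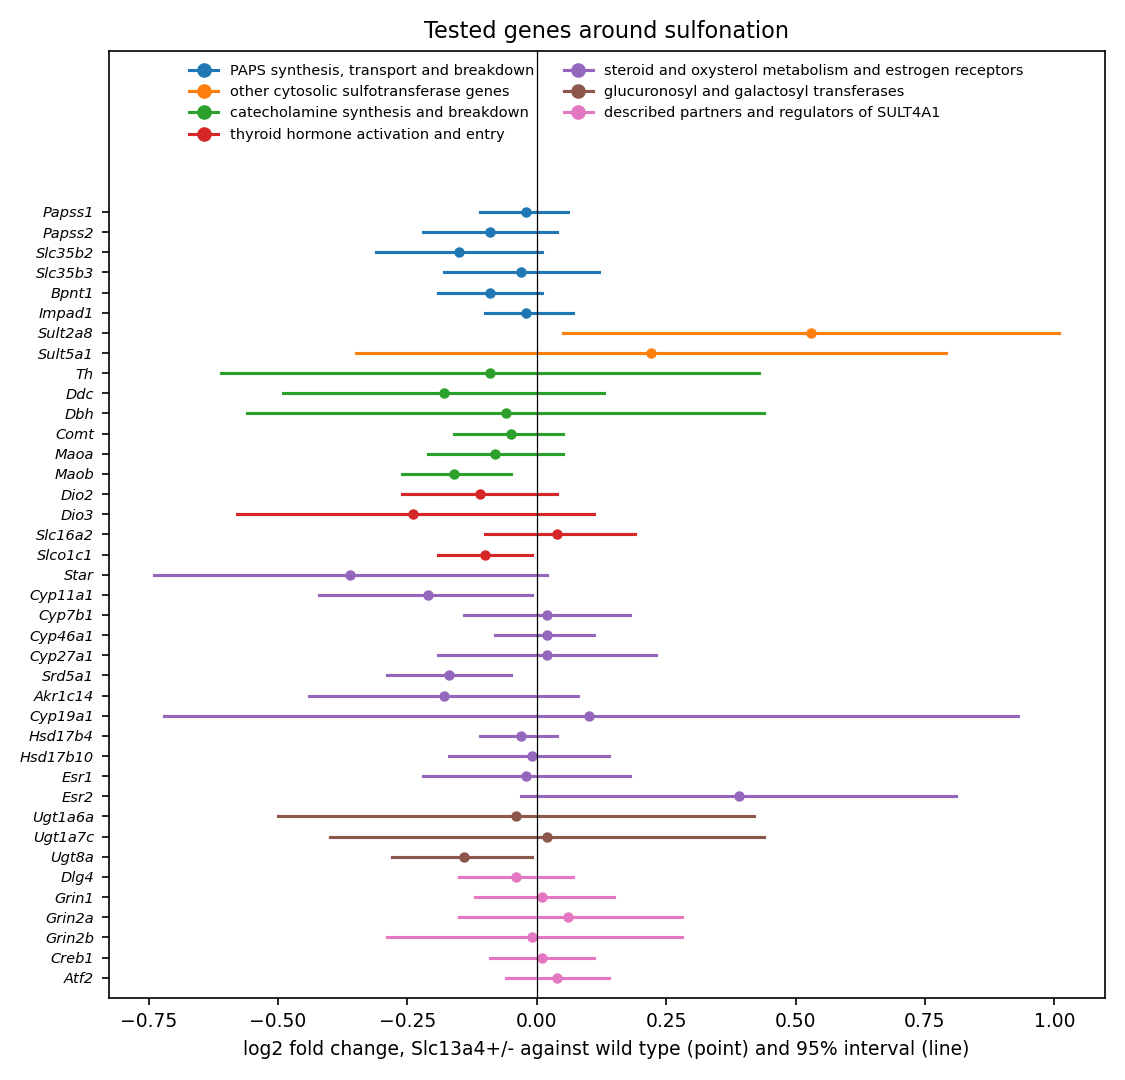
Log2 fold change between Slc13a4+/- and wild-type mice (x axis, point) with its 95% interval (line) for the 39 tested genes around sulfonation (y axis), coloured by list; positive values are higher in Slc13a4+/- mice. Sult2a8, at 0.53, lies highest. The 6 genes of PAPS synthesis, transport and breakdown all lie below 0 with intervals that reach 0. The 6 of catecholamine synthesis and breakdown all lie below 0 too.

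The genes whose level over the 6 mice was most like that of Sult4a1 were Gde1, Rpl31, Nfs1, Prpf19 and Cystm1, with Pearson r of 0.998, 0.997, 0.991, 0.987 and 0.985 for log2 CPM. Among the 17095 other tested genes, 255 (1.49%) had an r above 0.9. All values come from the same 6 libraries with the same scaling, and Sult4a1 itself moved only between 337 and 374 CPM, so these r describe small differences.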

How the data were processed

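RNA was measured in the whole forebrain of 3 Slc13a4+/- and 3 wild-type mice at P20. The authors prepared stranded libraries depleted of rRNA and quantified transcripts with Salmon (1.2.0, mapping validation and GC bias options). The deposited values are estimated counts per transcript, which need not be whole, and TPM, which the authors' tool scales by effective length. No source used here gives the transcript set of the index. The members and gene lists were chosen with earlier results of these data known. Identifiers without version were matched to GENCODE M21 (115973 of 117135 transcripts; the 1162 others held 0.620% to 0.645% of counts and were left out). Counts and TPM were summed per gene and counts were rounded. Genotypes were compared by the quasi-likelihood test of edgeR (4.0.16 in R 4.3.3, TMM, default low-count filter) over all 17096 genes, with Benjamini-Hochberg adjustment and a threshold of 0.1. The alternatives were DESeq2 1.42.0 with or without transcript length offsets, RLE scaling, other filters, protein coding transcripts only, a covariate for the run of the numbers in the mouse names (the lowest, Nas2Del_WT_1016 and Nas2Del_WT_1018, set against 4 later ones), and leaving out each mouse. Shares were compared by exact permutation tests (scipy 1.17.1). Log2 CPM used a prior count of 2. The fits were also run on counts simulated from the fitted model, and the outcome is not reported here. A gene was detected with 10 counts in 3 mice. Genes named were all members, Slc13a4, Papss1, Papss2, up to 2 genes per list with the smallest p, and the 5 genes most correlated with Sult4a1; Grin2a, Grin2b and the other calls named in the closing section were chosen after their values were seen. Mice are the replicates, and the 95% intervals of fold changes come from the edgeR fit and include the spread between mice. 1 gene beyond the 54 list genes counted here is not reported.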

Additional observations from a re-analysis of the deposited data

How the results depend on the processing

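No member was called under any of 20 alternatives, and no transcript of Sult4a1 under any of 8. The fold change of Sult4a1 stayed near 0 and changed sign: the log2 value was 0.03 with the run of animal numbers as a covariate, 0.02 without Nas2Del_WT_1016 in edgeR and 0.0049 without it in DESeq2. Without 1 mouse edgeR gave -0.05 to 0.02, and over all alternatives the value ran from -0.06 to 0.03; the cause was not tested. Leaving out 1 mouse moved the difference in the share of Sult4a1-201 from -0.063 (without Nas2Del_WT_1026) to 0.11 percentage points (without Nas2Del_WT_1018), with -0.014 without Nas2Del_Het_1024 and -0.0079 without Nas2Del_WT_1016. The difference in the share of summed TPM ran from -0.66 to -0.29 points, and by estimated counts it was -0.21. Sult1a1 stayed above 0 (0.05 to 0.19) and Sult2b1 below (-0.17 to -0.02). Of the genes around sulfonation, 1 was called with the covariate (Grin2b; 143 of 17096 genes in all, 0.836%), and leaving out 1 mouse gave 0 to 6 calls: without Nas2Del_WT_1026, edgeR called 3 (1.29% of all genes; Ddc, Grin2a and Grin2b) and DESeq2 called 6 (6.54% of all genes; Bpnt1, Ddc, Dio2, Grin2a, Grin2b and Ugt8a). The covariate leaves Nas2Del_WT_1026 as the lone wild-type mouse in its run, and it is then assumed to vary like the others. Depth limits the 6 members with at most 7 counts, for which no fold change is given. No paired analysis was made, because the sources used here do not say which of the mice shared a litter. An effect of litter was not tested.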
